A study of Mus musculus with 5 samples.

Results

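Gsdmc2, Gsdmc3, Gsdmc4, Gsdmd, Casp1, Pycard, Il18 and Nlrp6 are 8 mouse genes of the gasdermin family and of the inflammasome, a protein assembly that turns danger signals into cytokine release and lytic cell death. They were chosen by symbol, not by a measured value, and are 8 of the 27998 gene rows deposited for each library. All 8 carried unique molecular identifier (UMI) counts in every library. In the fits as designed they passed the filter on low counts in every comparison between groups of cells. The cells were epithelial cells isolated from the ileum, the distal small intestine, of C57BL/6 mice aged 8 to 12 weeks. Sham surgery was represented by 3 libraries (sham 1 to 3) and small bowel resection, which removes a length of small intestine, by 2 libraries (resection 1 and 2). The labels name no engineered allele and no drug, and the time after surgery and the number of animals in a library are not given in the sources used here. P-values therefore measure the spread between these libraries, which may be technical.

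Gasdermins are held inactive until a protease cuts them, after which the released part forms pores in membranes. Casp1, an inflammatory caspase, cuts Gsdmd and also matures the cytokine Il18. Nlrp6 is a sensor described in intestinal epithelium, and Pycard, also called ASC, is the adaptor that links such sensors to Casp1. In the intestine the Gsdmc genes are known as targets of the type 2 cytokines that act through the receptor subunit Il4ra and the transcription factor Stat6. Epithelial cells are born from stem cells in the crypt, move up as immature enterocytes and mature further as they climb the villus.

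The 3 Gsdmc genes lie side by side on the minus strand of chromosome 15 (GRCm38), Gsdmc2 at chr15:63824346-63845177, Gsdmc3 at chr15:63857724-63878558 and Gsdmc4 at chr15:63891264-63912297. Their coding sequences have 1443 bases each. Gsdmc2 and Gsdmc3 were 97.1% identical over the coding sequence, Gsdmc2 and Gsdmc4 93.7%, and Gsdmc3 and Gsdmc4 93.8%, whereas each of them shared 53.6% to 55.0% with Gsdmd. Over the first 721 coding bases, where the copies align without a gap, 19 positions differed among the 3 genes. The reads of this assay come from the 3' end of the transcript. There, in the last 500 transcript bases, 18.5% of the 90-base stretches of Gsdmc2 and 18.7% of those of Gsdmc3 were also found in another Gsdmc transcript, and 0 of 411 for Gsdmc4. How the authors' counting treated reads that fit more than 1 copy is not given in the sources used here, so the split between Gsdmc2 and Gsdmc3 is less certain than their sum or than Gsdmc4. The other members stand apart: Gsdmd at chr15:75862327-75867408, Casp1 at chr9:5298517-5307265, Il18 at chr9:50554827-50581840, Nlrp6 at chr7:140920902-140929192 (all plus strand) and Pycard at chr7:127989708-127993867 (minus strand).

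Of 19404 cells, 18235 were kept, 17782 of them epithelial. The libraries held from 1402 to 7233 cells and from 11749028 to 41281731 UMIs. Of the 18 clusters, made without the 8 genes, 1 was stem-like and 1 cycling-like (together called crypt, 1694 cells), 2 were immature enterocyte-like (3017 cells) and 9 enterocyte-like (11420 cells). Enterocyte-like cells were divided within each library into 3 equal villus bins (lower, middle, upper) by a score of villus top over villus base genes that holds none of the 8 genes. Neighbouring bins grade into each other, since 20.2% of enterocyte-like cells had a score within 0.1 of a boundary. The labelled tissue showed its markers: the summed ileal genes Fabp6, Slc10a2 and Fgf15 held 15280 to 28115 CPM (UMIs of a gene per 1000000 UMIs) in sham and 4865 to 16193 CPM in resection epithelium. The libraries fell into 2 sets by cluster makeup, sham 1 with resection 1 and sham 2, sham 3 with resection 2, with 40.4% to 56.6% overlap of cluster shares within a set and 12.5% to 18.4% across sets. Sham 1 held only 62 crypt cells.

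All 8 genes rose from the crypt to immature enterocyte-like cells, and then parted. The 3 Gsdmc genes and the adaptor Pycard fell along the villus, Gsdmd rose to its top, Casp1 and Il18 had their highest mean level in the lower villus bin, and Nlrp6 fell at the villus top. Levels along this axis are CPM of the UMIs summed over the cells of a class in 1 library. A 3' UMI count gives 1 tag per molecule and does not scale with transcript length. Tests are edgeR's quasi-likelihood test on those sums, with the libraries as blocks and Benjamini-Hochberg adjustment over all genes tested, and a call is an adjusted p under 0.05. Changes are log2 fold changes ± SE.

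**Figure D1:**
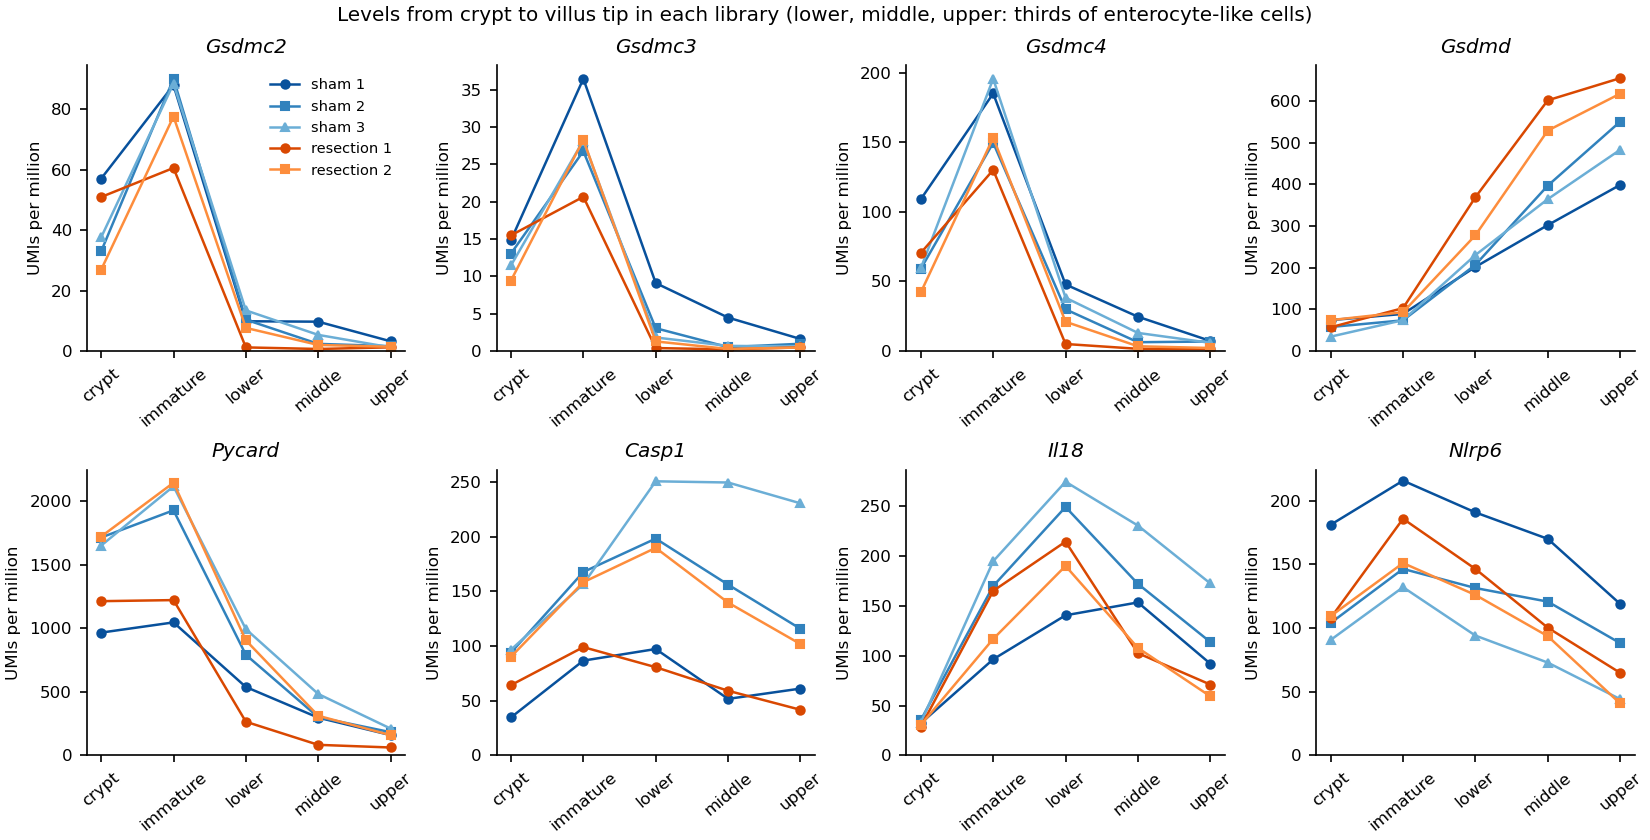
CPM of each of the 8 genes (y axis) in crypt, immature enterocyte-like and lower, middle and upper villus bins (x axis), 1 line per library, sham and resection in different colours. The Gsdmc genes peak in immature cells and Gsdmd climbs from crypt to the upper bin in all 5 libraries. Casp1 runs lower in sham 1 and resection 1, and Pycard does so in crypt and immature cells.

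Gsdmc2, Gsdmc3 and Gsdmc4 formed a narrow peak in immature enterocytes. Their summed level in crypt cells was 181, 105 and 109 CPM in sham 1 to 3 and 137 and 78.5 CPM in resection 1 and 2. In immature cells it was 309, 266 and 312 CPM in sham and 211 and 259 CPM in resection libraries. In the upper villus bin it was 12.2, 9.53 and 7.83 CPM in sham and 3.26 and 4.15 CPM in resection libraries. The immature level lay above the crypt level in all 5 libraries, by 1.54 to 3.30 times, and the 3 stages did not overlap among the 5 libraries. Pooled over libraries the sum was 2.45 times as high in immature cells as in the crypt and 42.9 times as high as in the upper bin. Of the 8461 Gsdmc UMIs in epithelial cells, 65.4% came from immature cells, which held 18.4% of all epithelial UMIs. Within the crypt the cycling-like cells held more than the stem-like cells in all 5 libraries, 1.76 times as much when pooled.

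Gsdmc4 was the most abundant of the trio. It made up 58.3% to 62.4% of the summed Gsdmc UMIs over all epithelial cells, against 26.5% to 31.9% for Gsdmc2 and 8.37% to 11.6% for Gsdmc3. In immature cells Gsdmc4 stood at 185, 150 and 196 CPM in sham and 130 and 153 CPM in resection libraries. Gsdmc2 reached 87.9, 90.03 and 88.4 CPM in sham and 60.5 and 77.5 CPM in resection libraries. Gsdmc3 reached 36.5, 26.8 and 28.2 CPM in sham and 20.7 and 28.3 CPM in resection libraries. The order Gsdmc4, Gsdmc2, Gsdmc3 held without overlap in immature cells. The founding member of the cluster, Gsdmc, averaged 0.37 CPM there.

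From crypt to immature cells all 8 members were called higher, where 60.8% of 10471 genes were called in either direction 31.1% higher and 29.8% lower. Among the Gsdmc genes the edgeR change was 1.58 ± 0.10 for Gsdmc4 (adjusted p 3.96e-14), 1.23 ± 0.12 for Gsdmc2 (adjusted p 5.01e-10) and 1.29 ± 0.15 for Gsdmc3 (adjusted p 7.88e-09). The members' median change was 1.08, beside 0.01 over all genes tested. From immature to enterocyte-like cells the 3 genes fell by 3.29 ± 0.24 for Gsdmc4, 3.78 ± 0.19 for Gsdmc2 and 4.10 ± 0.27 for Gsdmc3 (edgeR adjusted p 1.13e-07, 4.68e-09 and 4.15e-08). In that contrast 69.4% of 10497 genes were called, 35.8% higher and 33.7% lower.

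Within the enterocyte-like cells the decline went on. Gsdmc4 read 47.9, 29.996 and 38.3 CPM in the lower bin of the sham libraries and 5.12 and 21.1 CPM in resection libraries. In the upper bin it read 7.33, 6.90 and 5.95 CPM in sham and 1.51 and 2.24 CPM in resection libraries. Every library was lower in the upper bin, and edgeR gave -2.48 ± 0.18 (adjusted p 1.36e-07). Gsdmc2 changed by -2.19 ± 0.33 (edgeR adjusted p 9.48e-05). Resection 1 was the exception for Gsdmc2, already at 1.23 CPM in the lower bin and at 1.26 CPM in the upper. Gsdmc3 rested on 2 or 3 UMIs a library in the upper bin, and was lower there in 4 libraries and higher in 1. It was tested in 9 fits of this contrast, against 12 for each of the other members. Its change of -1.42 ± 0.43 (edgeR adjusted p 0.0142) was no longer called when the bins were cut at the same score in all libraries (-1.16, adjusted p 0.0611). In the upper against lower bin contrast 45.6% of 9491 genes were called, 23.3% higher and 22.3% lower.

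Shares of cells gave the same order after every cell was thinned to 2000 UMIs, which left out 0 cells. At least 1 Gsdmc UMI was seen in 12.2% to 19.4% of crypt cells, 30.3% to 45.8% of immature cells and 0.75% to 1.53% of upper bin cells across libraries. Unthinned shares were 27.6% to 46.8%, 60.8% to 79.2% and 1.56% to 4.74%, at median depths of 6392.5, 5729 and 4241.5 UMIs. In Paneth-like cells, which have a median of 10101 UMIs, the thinned share was 1.35% to 2.40%, so the upper bin share lay at or near theirs. The part of free RNA in either share was not tested. Goblet-like cells held 186, 125 and 79.3 CPM in sham and 38.1 and 62.9 CPM in resection libraries, between the lower bin and the immature cells when pooled. Among the 453 T cell-like cells, the summed level was 97.2, 46.6 and 99.6 CPM in sham and 25.1 and 34.5 CPM in resection libraries. These cells also held enterocyte RNA, with a UMI of the enterocyte gene Anpep in 91.2% of them.

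The crypt, immature and enterocyte-like cells of each library were also ordered along the villus score and divided into 10 equal parts. Parts 1 and 2 mix crypt and immature cells, with 33.0% to 71.5% and 13.1% to 47.2% crypt cells across libraries. The summed Gsdmc level was highest in the second part in all 5 libraries, by little in sham 1 (263 against 261 CPM in part 1). Its medians over libraries were 204, 237 and 156 CPM in parts 1 to 3 and 4.87 CPM in part 10. Gsdmd ran from a median of 51.7 CPM in part 1, its lowest in all 5 libraries, to 606 CPM in part 10. Pycard ran from 1733 to 157 CPM.

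**Figure D2:**
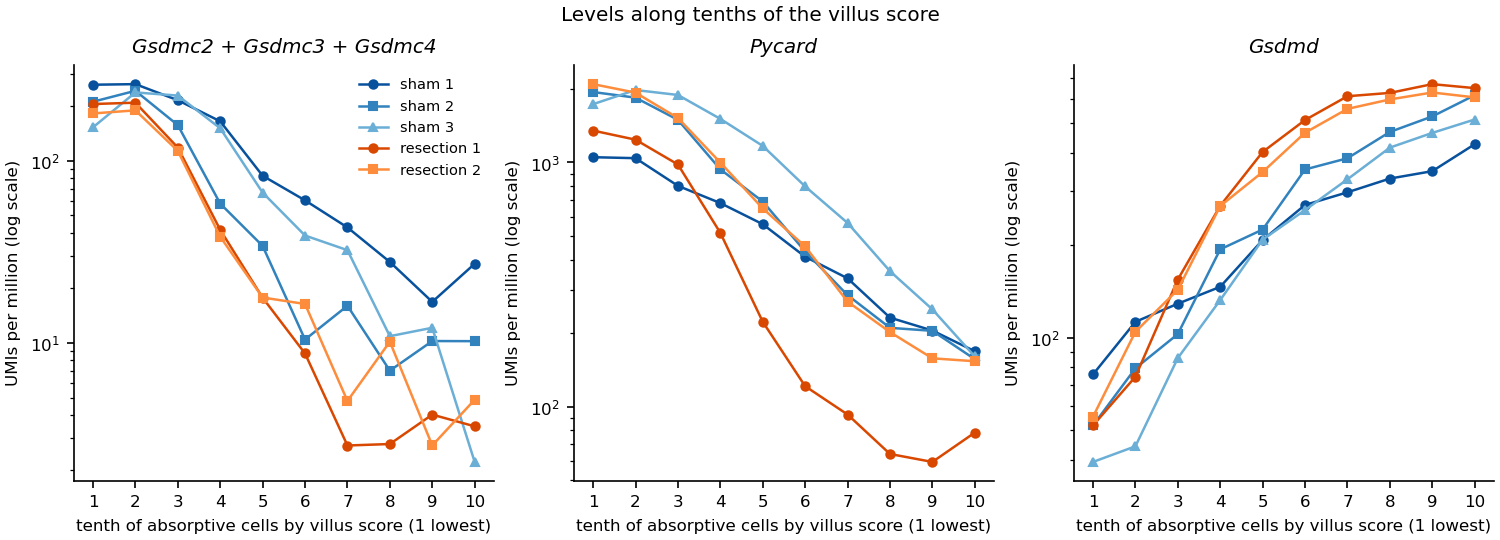
CPM on a log axis of summed Gsdmc2, Gsdmc3 and Gsdmc4, of Pycard and of Gsdmd (y axis) along 10 equal parts of the villus score from lowest to highest (x axis), 1 line per library. Gsdmc peaks in part 2 and falls, Pycard falls from parts 1 and 2, and Gsdmd rises from part 1 in all 5 libraries.

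Gsdmd, the gasdermin cut by Casp1 and Casp4, rose with the Gsdmc genes out of the crypt, went on rising where they fell, and became the main measured gasdermin of the villus. In the crypt it read 74.4, 57.9 and 34.7 CPM in sham and 57.2 and 74.4 CPM in resection libraries, and in immature cells 89.2, 73.9 and 74.3 CPM in sham and 103 and 93.3 CPM in resection libraries. The lower bin held 202, 207 and 230 CPM in sham and 369 and 278 CPM in resection libraries. The upper bin held 399, 551 and 483 CPM in sham and 655 and 618 CPM in resection libraries. Every library stepped up at each of these stages, and no crypt or immature value reached a lower bin value. The edgeR changes were 0.79 ± 0.10, 2.56 ± 0.10 and 1.2 ± 0.09 in the 3 contrasts in turn (adjusted p 4.92e-08, 8.85e-10 and 2.43e-07). Of 30670 Gsdmd UMIs in epithelium, 85.9% came from enterocyte-like cells. In immature cells summed Gsdmc exceeded Gsdmd in all 5 libraries, and in the upper bin Gsdmd exceeded summed Gsdmc in all 5.

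Joint detection in single cells was set beside the sums. In immature cells thinned to 2000 UMIs, Gsdmc2 was found in 16.2% of the cells with Gsdmc4 and in 13.8% of those without. The share was the higher one among cells with Gsdmc4 in 3 libraries, and the lower one in sham 1 (13.2% against 18.5%) and sham 2 (14.0% against 16.2%). Among enterocyte-like cells, Pycard was found in 71.8% of the 298 cells with any Gsdmc UMI and in 41.2% of the 11122 without. Gsdmd was found in 40.3% and 55.9%. Resection 1 went the other way for Gsdmd, with 68.75% of 16 cells against 61.6%. Position along the villus was not held fixed. These shares are descriptions over cells of all libraries, and cells of 1 library are not replicates.

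Pycard, the adaptor, was the most abundant member in crypt and immature cells of every library. It read 967, 1716 and 1652 CPM in the crypt of sham libraries and 1215 and 1723 CPM in resection libraries. Immature cells held 1047, 1930 and 2119 CPM in sham and 1223 and 2147 CPM in resection libraries. The upper bin held 160, 182 and 211 CPM in sham and 62.0 and 159 CPM in resection libraries. The step from crypt to immature cells was small (0.37 ± 0.04, edgeR adjusted p 1.27e-08). Immature cells held 1.01 to 1.28 times the crypt level across libraries, and resection 1 was nearly flat (1215 and 1223 CPM). The fall that followed was 1.78 ± 0.15 from immature to enterocyte-like cells and 2.05 ± 0.10 from the lower to the upper bin (edgeR adjusted p 4.50e-07 and 5.68e-09). Pooled, immature cells held 11.8 times the upper bin level. Sham 1 and resection 1 lay below the other 3 libraries in crypt and immature cells.

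Casp1, the protease, differed widely between libraries. In the crypt it read 34.7, 93.9 and 96.6 CPM in sham and 64.2 and 90.1 CPM in resection libraries, and in immature cells 86.6, 168 and 157 CPM and 99.0 and 158 CPM. The lower bin held 97.2, 198 and 251 CPM in sham and 80.6 and 190 CPM in resection libraries, and the upper bin 61.0, 116 and 230 CPM and 41.7 and 102 CPM. Sham 1 and resection 1 were the 2 lowest libraries at each of these stages. The rise from crypt to immature cells was 0.93 ± 0.07 (edgeR adjusted p 1.24e-12) and the change from the lower to the upper bin -0.56 ± 0.12 (adjusted p 0.00127). Between immature and enterocyte-like cells the estimate of 0.28 ± 0.14 was not called (edgeR adjusted p 0.0817, with a range of 0.000649 to 0.629 over the settings tried). It was called without the filter on low counts (0.37), without resection 1 (0.41, adjusted p 0.00759) and with doublets kept (0.30), and it was -0.08 with the raw UMI totals as library sizes.

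Il18, the cytokine that Casp1 matures, rose most steeply out of the crypt. Its crypt level was nearly the same in all libraries, at 32.2, 35.5 and 32.9 CPM in sham and 28.8 and 30.5 CPM in resection libraries. Immature cells held 96.4, 170 and 195 CPM in sham and 165 and 117 CPM in resection libraries, and the lower bin 141, 249 and 275 CPM and 214 and 190 CPM. The upper bin fell back to 92.0, 114 and 173 CPM in sham and 71.0 and 59.3 CPM in resection libraries. No crypt value reached an immature value, and the change was 2.46 ± 0.09 (edgeR adjusted p 3.17e-19). From immature to enterocyte-like cells Il18 was called higher on the TMM scale (0.47 ± 0.08, edgeR adjusted p 0.000283) and was not called with raw totals (0.11, adjusted p 0.292). From the lower to the upper bin it fell in all 5 libraries, by 1.05 ± 0.14 (edgeR adjusted p 3.52e-05).

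Nlrp6, the sensor, was highest in immature cells and lowest in the upper bin in all 5 libraries. In the crypt it read 181, 104 and 90.6 CPM in sham and 108 and 109 CPM in resection libraries, and in immature cells 216, 146 and 132 CPM and 186 and 151 CPM. The upper bin held 119, 88.1 and 44.1 CPM in sham and 64.8 and 40.7 CPM in resection libraries. Nlrp6 was lowest in part 10 of the villus score in all 5 libraries, and unlike Casp1 and Pycard it was highest in sham 1 at each of these stages. The edgeR changes were 0.71 ± 0.07 from crypt to immature cells (adjusted p 6.06e-10) and -0.94 ± 0.13 from the lower to the upper bin (adjusted p 3.24e-05). The fall of 0.27 ± 0.08 from immature to enterocyte-like cells (edgeR adjusted p 0.0108) was no longer called without sham 3 (-0.21, adjusted p 0.0584) or without the filter on low counts (-0.18, adjusted p 0.1).

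Counts of calls along the villus axis depend on scaling. With raw UMI totals in place of TMM factors, an alternative chosen after seeing the data, the median change of all genes moved to -0.16, -0.35 and -0.11 in the 3 contrasts. The share of calls that were higher moved from 51.1% to 35.7%, from 51.5% to 29.7% and from 51.1% to 37.8%. The members' calls stayed as given except that of Il18 between immature and enterocyte-like cells.

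Across the 25 sums of 5 stages in 5 libraries, centred within each library, the genes most like each member were looked for among 4890 genes of at least 20 CPM. The Pearson correlations of log2(CPM + 10) are descriptions, since the sums share libraries, depth and the stage axis. Gsdmc4 ran closest to Dad1, Hint2 and S100a6 (0.98 each), and Gsdmc2 to Tspan8 (0.98), Txn1 and Hint2 (0.97 each). Gsdmd ran closest to Slc9a3r1, a brush border scaffold (0.998), Crip1 and Rfk (0.99 each), and Pycard to Tspan1, Pgls and 2410015M20Rik (0.99 each). Il18 was nearest to Slc26a3, Ccl25 (0.99 each) and Myl6 (0.98), and Nlrp6 to Tysnd1 (0.93), Fdx1 and Timm8b (0.91 each). Casp1 had looser neighbours in Gfpt1, Pccb and Cldn3 (0.90 each). Gsdmc3 was under 20 CPM and was left out of this search. Among the members, Gsdmc2 and Gsdmc4 reached 0.98, Gsdmc4 and Pycard 0.94, Casp1 and Il18 0.81, and Gsdmd and Pycard -0.94.

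A list of 52 other genes of the pathway was measured alongside. More of them were called higher than lower in each of the 3 contrasts. Tested were 26, 28 and 27 of the 52 in the 3 contrasts, of which edgeR called 19 higher and 3 lower from crypt to immature cells (31.1% and 29.8% of all genes tested), 20 and 3 from immature to enterocyte-like cells (35.8% and 33.7%), and 14 and 2 from the lower to the upper bin (23.3% and 22.3%). With raw totals the counts were 14 and 4, 18 and 4, and 11 and 4.

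Among the sensors, 7 of 10 tested were called higher and 2 lower from crypt to immature cells. The counts were 7 and 2 of 11 in the next step, and 5 and 2 of 10 from the lower to the upper bin. Aim2 was called lower in the second and the last contrast. Naip5, a sensor of bacterial flagellin, averaged 39.0 ± 25.8 CPM in the crypt and 187 ± 74.4 CPM in the upper bin (SD, n = 5), and its edgeR changes were 1.16, 1.40 and 0.98, all called. Txnip, a thioredoxin binding protein, was called higher in the first step only (0.67 ± 0.07), and Naip1 in the first (1.41 ± 0.09) and second (0.30 ± 0.07). The second call of Naip1 was lost with raw totals. Dhx15, an RNA helicase, fell in all 3 contrasts. Means under 1 CPM were found for 5 of the 16 sensors: Nlrp12, Nlrp3, Nlrp1a, Nlrp10 and Mefv.

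Of the caspases, 5, 4 and 3 of the 6 tested were called higher in the 3 contrasts and 0 lower. Casp4, the mouse caspase-11 that cuts Gsdmd without Casp1, averaged 39.8 ± 14.1 CPM in the crypt and 94.5 ± 41.4 CPM in the upper bin (SD, n = 5), with edgeR changes of 0.62, 1.14 and 0.24, the last not called. Casp8, a protease known to cut gasdermin C, changed by 0.67, 0.66 and 0.49, all called. Dfna5, the symbol used in these files for gasdermin E, was the only 1 of the 6 other gasdermins tested. It averaged 29.6 ± 7.98 CPM in the crypt and 82.6 ± 15.0 CPM in the upper bin (SD, n = 5), and was called higher in the second and the last contrast (1.5 ± 0.09 and 0.84 ± 0.09). The 5 remaining gasdermins, Gsdmc and Gsdma2 among them, averaged under 1 CPM.

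The receptor chains of the type 2 cytokines rose out of the crypt, as the Gsdmc genes did, and were called higher again in the later steps, in which the Gsdmc genes fell. Il4ra averaged 13.8 ± 3.72 CPM in the crypt and 61.9 ± 18.2 CPM in the upper bin, and Il13ra1 27.2 ± 5.84 and 85.4 ± 13.0 CPM (SD, n = 5). Both were called higher in each contrast, Il4ra by 0.95, 1.17 and 0.78 and Il13ra1 by 0.64, 1.26 and 0.79 on edgeR's log2 scale. Stat6 was not called in any of them (0.03, 0.16 and 0.25). Il1b, the other cytokine that Casp1 matures, averaged at most 0.15 CPM at the crypt, immature, lower and upper stages. Ninj1, which ruptures the membrane downstream of gasdermin pores, fell by 0.49 ± 0.14 and 0.64 ± 0.15 in the first 2 contrasts. The membrane repair genes Chmp4b and Chmp3 were called higher in both (0.51 and 0.57 for Chmp4b, 0.30 and 0.41 for Chmp3), and both calls of Chmp3 were lost with raw totals. Panx1, a membrane channel, changed by 0.40, 0.82 and 0.27, all called by edgeR, the first and the last not with raw totals. Of the 7 guanylate binding proteins, 6 averaged under 1 CPM, Gbp2 and Gbp3 among them, and Gbp7 was called higher once (2.35 ± 0.46, immature to enterocyte-like).

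**Figure D3:**
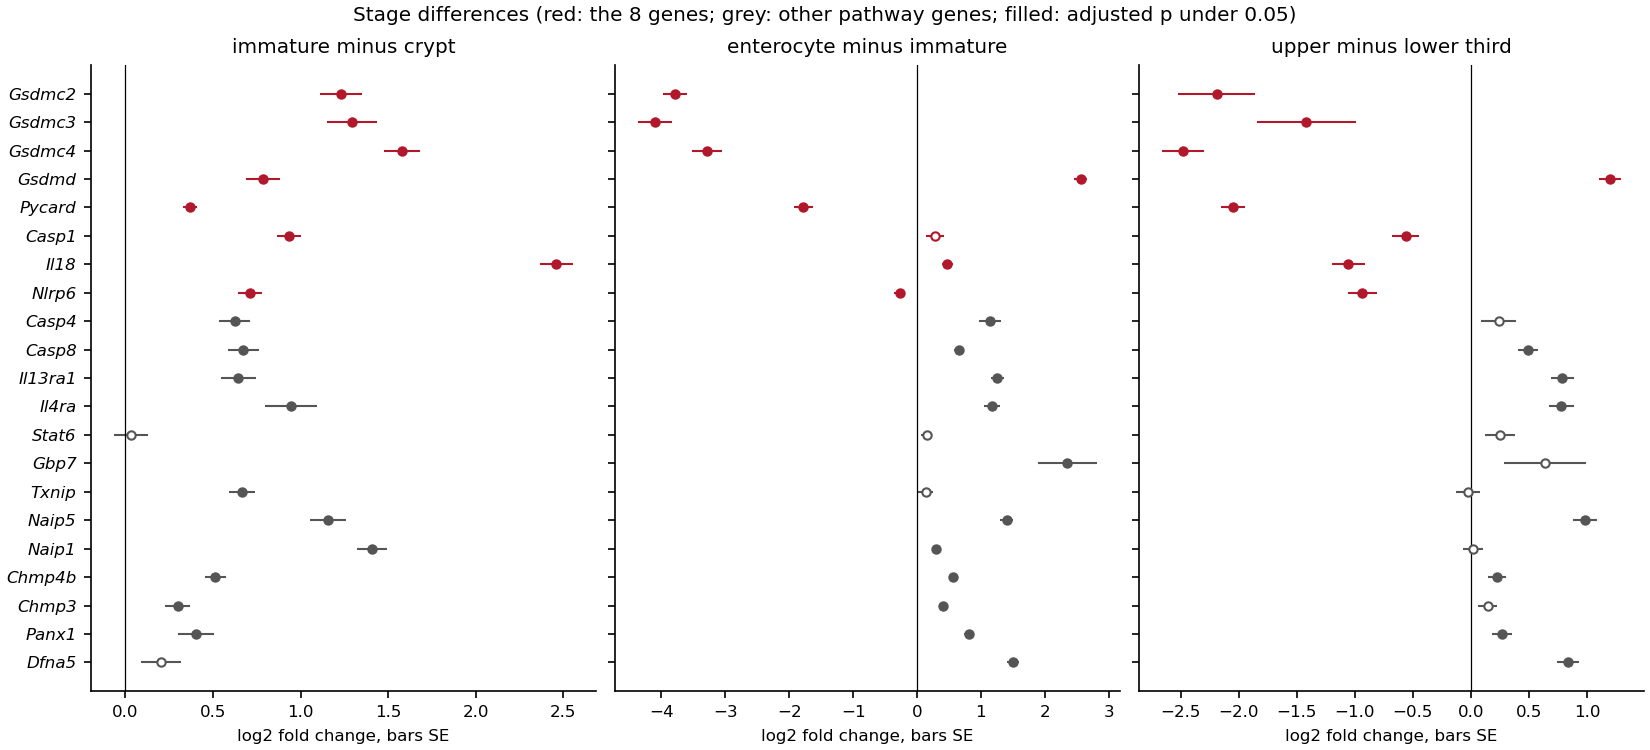
Log2 fold change ± SE (x axis) of the 8 members and of the named pathway genes (y axis) in immature against crypt, enterocyte-like against immature and upper against lower bin, with filled points for adjusted p under 0.05 in edgeR's quasi-likelihood test. All 8 members lie right of 0 in the first contrast. In the last, Gsdmd alone of the members lies to the right.

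The second question was whether these genes differ between small bowel resection and sham surgery. None of the 8 was called by edgeR in all epithelial cells, crypt, immature or enterocyte-like cells, in comparisons in which edgeR called 0 of the genes tested (percent called 0). The genes at an unadjusted p under 0.05 numbered 321, 152, 136 and 549 in these 4 classes, and DESeq2 called 31, 3, 3 and 67 (0.178%, 0.0202%, 0.02% and 0.422%), none of them a member. The 3 called in the crypt were Lct, Apoc3 and Apoa4, and the 3 in immature cells Gimd1, Apoc3 and Apoa4, named after their values were seen. Levels in this comparison are CPM scaled by TMM factors, and differences are resection minus sham. Sums over all epithelial cells depend both on how many cells of a type they hold and on the RNA per cell. Immature cells were 236 of 1251, 639 of 3675 and 468 of 2741 epithelial cells in sham libraries. In resection libraries they were 733 of 3645 and 941 of 6470. The part of each in the surgery values was not tested.

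The sizes of the estimates were uneven. Gsdmc4 stood at 49.96, 50.6 and 55.7 CPM in sham epithelium and 32.5 and 39.1 CPM in resection epithelium. Gsdmc2 stood at 21.4, 27.7 and 26.1 CPM against 16.6 and 19.6 CPM, and Gsdmc3 at 9.37, 8.46 and 7.46 CPM against 5.48 and 6.70 CPM. Both resection libraries lay below all sham libraries for each of the 3 genes, as they did for 5.42% of all genes tested (1.81% on raw CPM). The edgeR estimates were -0.56 ± 0.22 for Gsdmc4 (unadjusted p 0.0378, adjusted p 1), -0.49 ± 0.22 for Gsdmc2 and -0.49 ± 0.24 for Gsdmc3. The sum of the 3 was 80.8, 86.8 and 89.2 CPM in sham and 54.6 and 65.5 CPM in resection libraries. Its difference of -0.51 on the log2(CPM + 1) scale had an exact two-sided permutation p of 0.1, the smallest that 3 against 2 libraries can give over 10 splits. On the raw CPM scale the difference was -0.34 (exact permutation p 0.2), and Gsdmc2 then overlapped between the groups.

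In enterocyte-like cells the estimates for these genes were larger. The libraries fill different enterocyte-like clusters there: clusters 1 and 5 hold 1842 of 1983 and 1065 of 1199 cells from resection 2, clusters 7 and 11 hold 1025 of 1041 and 941 of 947 from resection 1, cluster 4 holds 1119 of 1275 from sham 2, cluster 6 holds 1014 of 1086 from sham 3 and cluster 10 holds 602 of 960 from sham 1. Gsdmc4 averaged 2.39, 3.44, 1.60 and 1.37 CPM in clusters 1, 5, 7 and 11, 5.26, 17.5 and 21.4 CPM in clusters 4, 6 and 10, and 25.6 and 24.6 CPM in clusters 2 and 3, which sham 2, sham 3 and resection 2 share. Mean position on the enterocyte markers, on a scale from 0 to 1, ran from 0.53 in cluster 3 to 0.94 in cluster 11, and the part of this makeup in the surgery values was not tested. Gsdmc4 read 22.4, 17.3 and 22.3 CPM in sham and 2.68 and 11.3 CPM in resection libraries. Gsdmc2 read 6.39, 5.84 and 7.89 CPM against 0.99 and 4.55 CPM, and Gsdmc3 4.26, 1.81 and 1.19 CPM against 0.35 and 0.82 CPM. Resection 1 was the lowest library for each gene, and the groups did not overlap for any of the 3, as for 7.54% of genes tested on the lower side. The edgeR estimates were -1.58 ± 0.54 for Gsdmc4 (adjusted p 0.835), -1.27 ± 0.56 for Gsdmc2 (0.950) and -1.91 ± 0.69 for Gsdmc3 (0.866). Gsdmc4 was called without the filter on low counts (-1.55, edgeR adjusted p 0.00173), in a fit that called 230 of 15875 genes. Its adjusted p ran from there to 1 over the settings tried. Within the 2 sets of libraries the differences of log2(CPM + 1) were -2.67 between resection 1 and sham 1 and -0.76 between resection 2 and the mean of sham 2 and sham 3 for Gsdmc4, -1.89 and -0.50 for Gsdmc2, and -1.96 and -0.46 for Gsdmc3. The added 1 CPM shrinks these low values: without it the differences between resection 1 and sham 1 were -3.06, -2.69 and -3.59 for Gsdmc4, Gsdmc2 and Gsdmc3, and the others -0.81, -0.59 and -0.87. The sign was the same in both sets and the size was not.

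Where the Gsdmc genes peak, the groups were closer. In immature cells Gsdmc4 read 152, 169 and 211 CPM in sham and 117 and 169 CPM in resection libraries, and edgeR gave -0.34 ± 0.30. The ranges overlapped there for all 3 Gsdmc genes, whereas on raw CPM those of Gsdmc2 did not. In the crypt Gsdmc4 read 93.2, 65.3 and 63.9 CPM against 63.2 and 46.4 CPM (-0.43 ± 0.31), without overlap on this scale and with overlap on raw CPM. In the crypt 4.29% of genes lay wholly lower and 7.31% wholly higher in resection, and in immature cells 3.84% lay wholly lower.

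Gsdmd went the other way. Over all epithelial cells it stood at 160, 255 and 205 CPM in sham and 270 and 320 CPM in resection libraries. In enterocyte-like cells it stood at 247, 407 and 377 CPM against 491 and 487 CPM, and in immature cells at 73.3, 83.5 and 80.3 CPM against 93.0 and 103 CPM. Both resection libraries lay above all sham libraries in these 3 classes, as did 8.95%, 11.9% and 7.9% of genes tested. On raw CPM they did so too, with 18.5%, 8.51% and 4.90% of genes. The edgeR estimates of 0.50 ± 0.30, 0.49 ± 0.32 and 0.28 ± 0.24 were not called. Within the sets they were 0.75 and 0.48 over all epithelial cells and 0.99 and 0.31 in enterocyte-like cells. Crypt values overlapped (63.5, 63.9 and 37.3 CPM against 51.3 and 81.9 CPM).

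**Figure D4:**
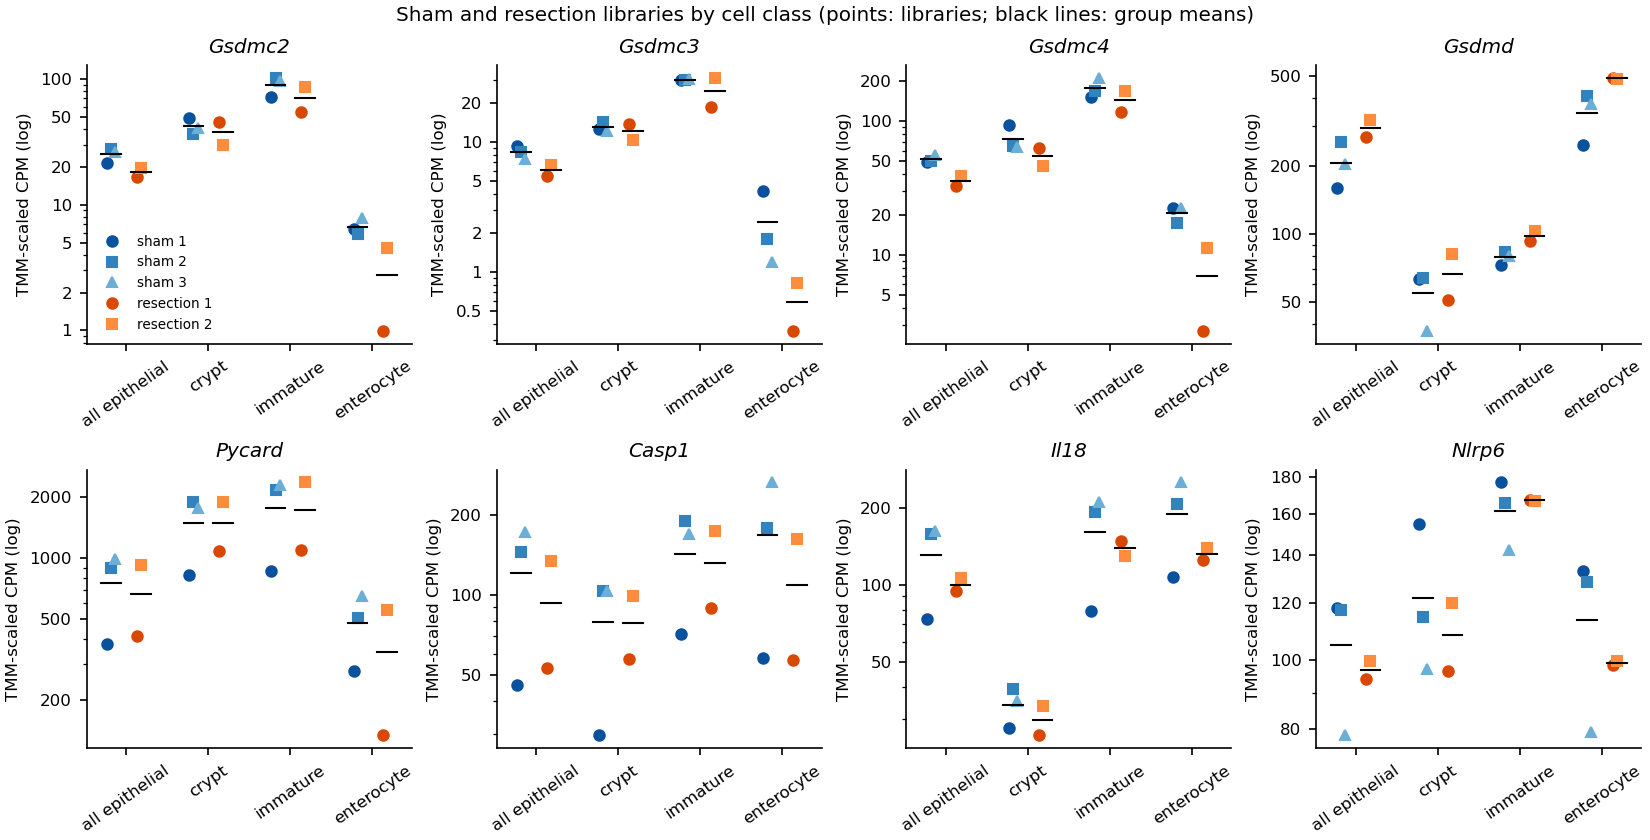
TMM-scaled CPM on a log axis (y axis) of the 8 genes by library in all epithelial, crypt, immature and enterocyte-like cells (x axis), sham and resection in different colours, with black lines at the group means. In all epithelial and enterocyte-like cells both resection points lie below the 3 sham points for the Gsdmc genes and above them for Gsdmd. Over all epithelial cells the Pycard and Casp1 points of sham 1 and resection 1 lie together at the bottom. They part for Pycard in enterocyte-like cells (277 CPM in sham 1, 134 CPM in resection 1) and for Casp1 in the crypt (29.7 and 57.6 CPM).

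Pycard, Casp1, Il18 and Nlrp6 overlapped between the groups in all 4 classes on the TMM scale. On raw CPM, Il18 in the crypt lay lower in both resection libraries than in all sham libraries, as did 3.79% of genes tested. Over all epithelial cells Pycard read 376, 898 and 991 CPM in sham and 412 and 923 CPM in resection libraries, and edgeR gave -0.19 ± 0.53. Casp1 read 45.9, 145 and 174 CPM against 53.0 and 134 CPM (-0.39 ± 0.60). Both genes were low in sham 1 and resection 1, which belong to the same set. The within-set differences were 0.13 and -0.03 for Pycard and 0.20 and -0.25 for Casp1. In enterocyte-like cells they were -1.05 and -0.06 for Pycard and -0.02 and -0.46 for Casp1. Il18 read 73.8, 158 and 162 CPM against 94.4 and 106 CPM (-0.40 ± 0.37), with opposite signs within the sets (0.35 and -0.59). Nlrp6 read 118, 118 and 78.5 CPM against 94.0 and 99.5 CPM (-0.14 ± 0.29). Pycard and Casp1 had the widest SEs of the 8.

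Other values were set beside these genes. The ileal sums were apart between the surgery groups in enterocyte-like and immature cells. Over all epithelial cells and in the crypt they overlapped. The summed epithelial genes Epcam, Vil1, Cdh1 and Krt8 were apart too. In enterocyte-like cells they held 7890 to 8702 CPM in sham and 6420 to 7033 CPM in resection libraries. In immature cells they held 8044 to 9216 and 7701 to 7732 CPM. The T cell, macrophage and mitochondrial values given here overlapped. The summed ileal genes in enterocyte-like cells held 28036 to 44745 CPM in sham and 8316 to 22264 CPM in resection libraries, and in immature cells 10659 to 12040 and 2338 to 7294 CPM. All 3 genes of that list were measured. Of the 8 T cell markers 7 were measured, and their sum in enterocyte-like cells was 21.7 to 50.04 CPM in sham and 15.1 to 39.5 CPM in resection libraries, against 3831 to 7599 CPM in T cell-like cells of sham libraries. Of the 9 macrophage markers 8 had UMIs in enterocyte-like cells, summing to 5.40 to 10.0 CPM in sham and 4.96 to 7.91 CPM in resection libraries, with Adgre1 at 0. The median mitochondrial share of a cell was 13.7% in sham 1 and 11.7% in resection 1 and 7.24% to 9.19% in the other 3 libraries. The part of each of these in the members' differences was not tested.

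Whether the surgery difference itself changed between immature and enterocyte-like cells was tested as an interaction. No member was called, in a comparison in which edgeR called 1 of 10497 genes (0.00953%), Fbp1, and 1147 had an unadjusted p under 0.05. The difference was -1.26 ± 0.28 for Gsdmc4 (edgeR adjusted p 0.0842, from 4.08e-08 to 0.475 over the settings tried), -1.44 ± 0.48 for Gsdmc3 (0.234), -0.85 ± 0.30 for Gsdmc2 (0.277) and -0.65 ± 0.21 for Pycard (0.223). Without resection 2 it was called for Gsdmc4 (-2.22, edgeR adjusted p 4.96e-05), Gsdmc2 (-1.91, 0.00649) and Pycard (-1.10, 0.00221). In that fit 358 genes were called and resection 1 is the lone resection library, assumed to vary like the sham libraries. Without resection 1 none of the 3 was called. Without the filter on low counts, a fit that called 300 genes, edgeR called Gsdmc4 (-1.33, adjusted p 4.08e-08), Pycard (-0.71, 0.00243), Gsdmc3 (-1.49, 0.0105) and Gsdmc2 (-0.91, 0.0116). Gsdmd gave 0.26 ± 0.17.

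None of the 52 other pathway genes was called between surgery groups by edgeR as designed. Those fits called 0 genes in each of the 4 classes. Calls of pathway genes in the alternative fits that lack a replicate block are not given here. With the labels' replicate number as a block, edgeR called Il33, a cytokine of barrier cells, higher after resection. Its change was 1.26 ± 0.19 over all epithelial cells (edgeR adjusted p 0.00248) and 1.33 ± 0.22 in enterocyte-like cells (adjusted p 0.0316). Those fits called 284 of 12122 and 109 of 10872 genes tested. Sham 3 has no partner in that block. The calls thus rest on sham 1 with resection 1 and sham 2 with resection 2, too few pairs to show pairing. Over all epithelial cells the 7 caspases tested had a median of 0.21 and the 11 sensors one of 0.17, beside -0.40 for the 8 members and -0.03 over all genes tested. In enterocyte-like cells the medians were 0.11, 0.22 and -0.58, beside -0.02. The cytokines and receptors tested had medians of -0.01 over all epithelial cells and 0.03 in enterocyte-like cells. Those of membrane rupture and repair were -0.16 and -0.14. The 1 guanylate binding protein tested changed by -0.60 and -0.48, and the 1 other gasdermin by 0.17 and 0.13.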

How the data were processed

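The authors deposited raw UMI counts per gene and cell from Chromium 3' libraries, 1 matrix per sample; per the submitters' processing notes the builds are GRCm38 and mm10, and per the labels the Cell Ranger version is given with a question mark. Cells with at least 500 genes and at most 20% mitochondrial UMIs were kept, 720 predicted doublets (3.80%) were removed, and cells were clustered (2000 variable genes without the members and pathway genes, 30 components, 20 neighbours, Leiden resolution 1.0; scanpy 1.11.5, Python 3.11.15) with no batch correction. Clusters were named from marker lists, and the rule that divides immature from enterocyte-like clusters was chosen after the clusters were seen. UMIs were summed per library and class and tested with edgeR 4.0.16 (quasi-likelihood, TMM, low-count filter, Benjamini-Hochberg) in R 4.3.3. Surgery fits had no further term, stage fits had the library as a block. A fit without each library in turn, DESeq2 1.42.0, RLE scaling, no filter, a set term, doublets kept, another clustering and raw totals were alternatives. Scripts were tested on simulated data.

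The members and all lists were chosen with earlier results of these data known. Pathway genes were named by 1 rule. It took the 3 of each group with the highest mean CPM over all epithelial cells, and any called between surgery groups. Dhx15, Aim2, Il1b, Ninj1 and the genes listed as under 1 CPM were named outside that rule. A gene that the rule names and the Gsdmc coding stretches are not reported here. Positions and coding sequences are from GENCODE M21. Paneth-, goblet-, tuft- and T cell-like clusters enter no stage contrast. Depth limits the precision of the rarest members in the upper bin.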

Additional observations from a re-analysis of the deposited data

How the results depend on the processing

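The stage contrasts kept their counts of called genes within 1.5 times under every alternative run. Counts of called genes between surgery groups, 0 in edgeR as designed, moved with the tool, the filter and the terms of the fit. In all epithelial, crypt, immature and enterocyte-like cells in turn they were 17, 15, 4 and 230 without the filter on low counts, 31, 3, 3 and 67 with DESeq2, and 3, 1, 7 and 27 with the set of libraries as a term. Leaving out 1 library gave 0 to 3 in enterocyte-like cells (3 without resection 2) and 0 in the other classes. RLE scaling and raw totals gave 0. The difference between enterocyte-like and immature cells, with 1 called gene, had 300 without the filter, 2 with the other clustering, 0 with doublets kept, 35 with raw totals, and 0 to 358 when 1 library was left out (12 without sham 2, 358 without resection 2). The cause was not tested.

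The labels' replicate numbers are shared by 2 pairs of libraries (sham 1 with resection 1, correlation of deviations 0.65, and sham 2 with resection 2, 0.39), too few to show pairing. With a replicate block the 4 surgery counts were 284, 19, 125 and 109, with no member among the calls.

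Of the members' values under the alternatives, 740 were unchanged. In a fit this meant the same sign and the same side of the threshold. Inside 1 set of libraries, where no test was run, it meant a value within 1 SE of the main estimate. A further 58 moved without a call, by a change of sign or by more than that SE. In addition 11 became calls and 4 lost the call, and 0 called values changed sign. Uncalled surgery estimates changed sign in 56 of 488 cases, 22 of them Pycard, 14 Casp1 and 0 Gsdmc4. The summed Gsdmc difference ran from -0.38 to -0.64 when 1 library was left out. Upper bin sums of 2 or 3 Gsdmc3 UMIs limit what depth can show.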
